A study of Arabidopsis thaliana with 12 samples.

Results

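The nrpb2-3 mutant of Arabidopsis thaliana, which carries an altered second-largest subunit of RNA polymerase II (Pol II), was compared with the wild type Columbia-0 over every gene of the deposited count table, 3 libraries against 3. The table holds 32833 genes, of which 20471 had enough counts to be tested, and 6 of the 12 libraries of the study enter the comparison. Seedlings of both genotypes were grown in soil under long days at 21 °C after 4 days of stratification at 4 °C, and total RNA was taken 12 days after germination. The other 6 libraries are of ssrp1-2 and spt16-2, mutants of either subunit of the histone chaperone FACT grown in the same way, and the direct test of nrpb2-3 against their mean is given beside selected genes. Whether the 3 libraries of a genotype stem from different sowings is not in the labels, so the p-values speak of the spread among these libraries, possibly a technical one. The labels give nrpb2-3 no rescue line and no second allele, so the comparison rests on 1 allele.

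Pol II makes messenger RNAs, microRNA precursors and many other non-coding RNAs of the plant nucleus. It works with general transcription factors that place it at promoters, with Mediator, which carries signals from activators, and with kinases and phosphatases that act on the repeated tail of its largest subunit as the transcript is capped, spliced and cleaved. The subunit NRPB2 forms, with the largest subunit, the catalytic centre of the enzyme. It is essential, so living seedlings can be studied only with alleles that leave some function.

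Library totals ran from 39483328 to 43434901 counts. Levels are given as CPM (counts as a share of a library total that was scaled by TMM), as single libraries or as mean ± SD over n = 3. Fold changes are log2 values of nrpb2-3 over Columbia-0 with a standard error. That error was calculated from edgeR's quasi-likelihood F-test, as the size of the log2 fold change over the square root of F. It is approximate, above all for genes with few counts. A value ± error with no unit is such a log2 fold change. Calls of higher or lower rest on edgeR p-values adjusted by Benjamini-Hochberg across the tested genes, with 0.05 as the limit. By that rule 3238 genes (15.8% of those tested) were higher in nrpb2-3 and 3097 genes (15.1%) were lower. These shares are the background for the counts of list members below. All tested genes together had a median log2 fold change of 0.05. The 10 most abundant genes took 12.6% to 14.6% of counts in Columbia-0 and 5.77% to 9.56% in nrpb2-3, so the scale matters: with library totals in place of TMM every fold change moved up by about 0.55 on the log2 scale. All directions below are relative to the bulk of transcripts, and the distance of a list's median from 0.05 is the quantity that this choice leaves nearly as it is. NRPB2 itself (AT4G21710) stood at 36.5, 47.3 and 43.0 CPM in Columbia-0 and 69.2, 66.6 and 65.4 CPM in nrpb2-3, with no overlap of the groups, as in 24.3% of the tested genes in this direction and 19.9% in the other (edgeR log2 fold change 0.67 ± 0.12, adjusted p = 0.0013), so transcript level gives no check of this allele. Of 196 genes with values given, 46 overlap another annotated gene, and with the strand setting of the counting not given, reads of the partner may be among theirs. In the labelled tissue, whole seedlings, the leaf markers were abundant, while the root markers RHD6 and PLT1 had no count in either genotype.

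**Figure D1:**
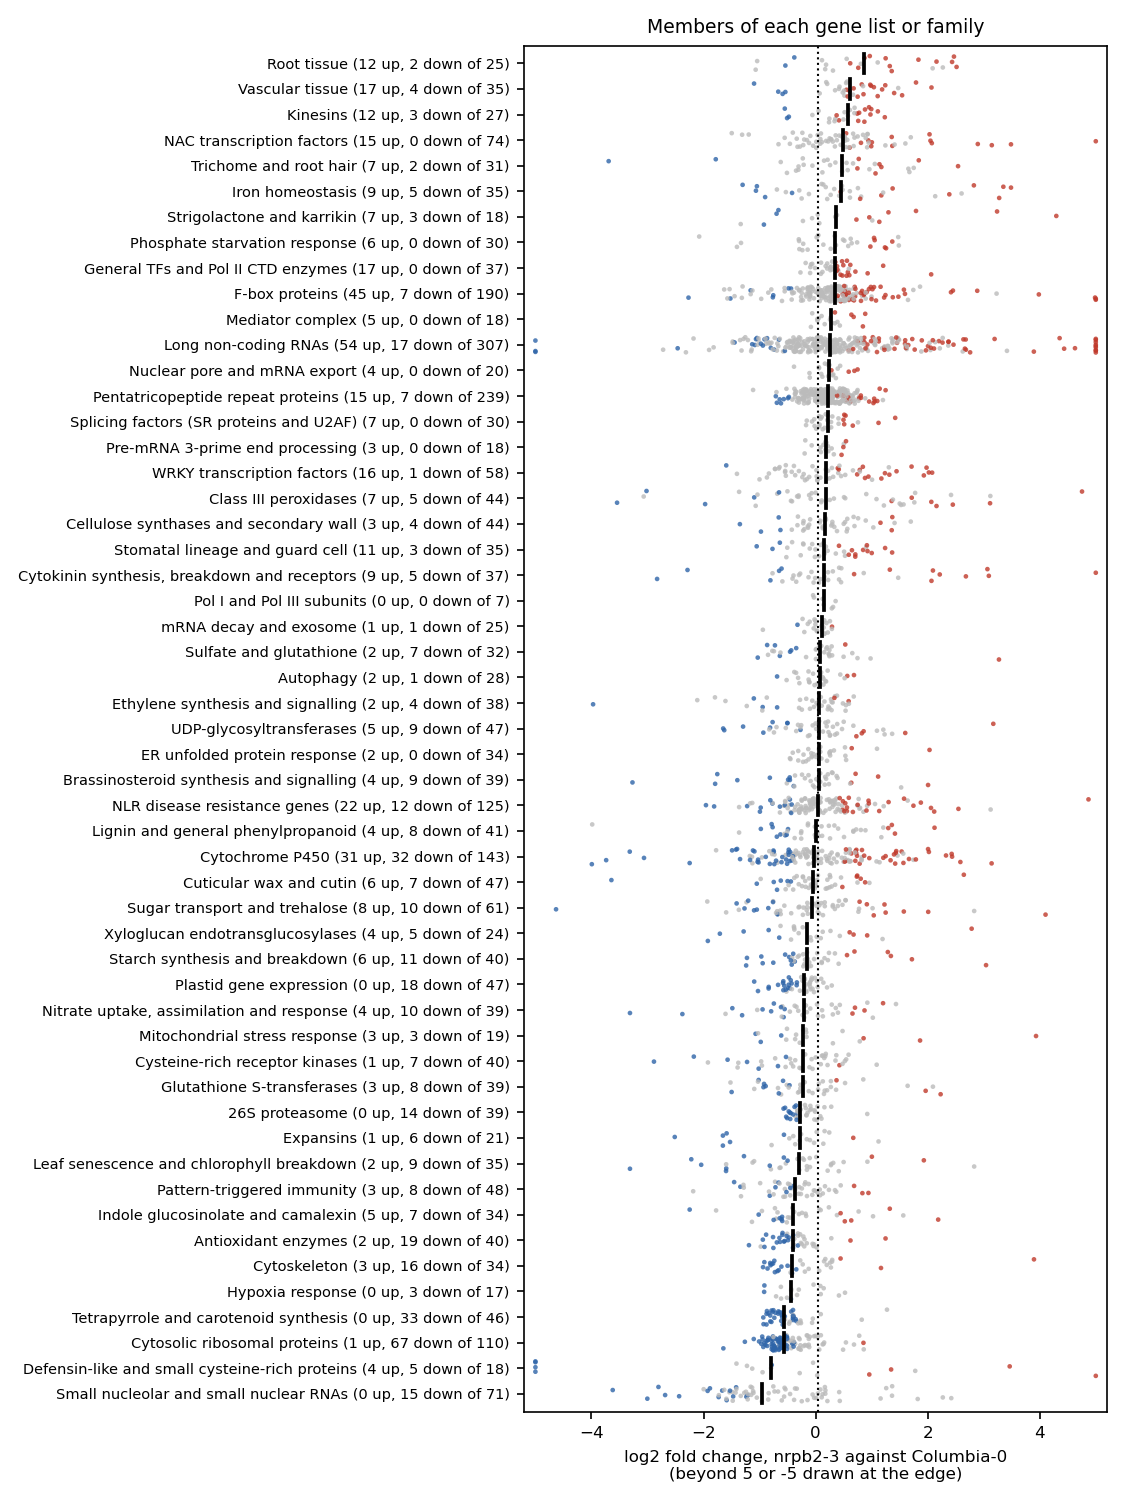
Log2 fold change (x axis) of each tested member (point) of each gene list or family with 5 or more tested members, ordered by their median (black bar), with genes called higher in red, called lower in blue and not called in grey. The dotted line is the median of all tested genes, 0.05. Members of the ribosomal protein and the tetrapyrrole and carotenoid lists crowd to the left of it and those of the root and vascular lists to the right.

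Of the 12 widest increases in nrpb2-3 among genes with an annotated symbol or description, 7 belonged to small families of secreted proteins, most of which are known from cells of the embryo sac, the female gametophyte inside the ovule. The long non-coding RNA AT2G04735, without such a name, rose further still, at least 377-fold. The family with the most genes was that of ECA1 gametogenesis and prolamin-like proteins, small secreted cysteine-rich proteins. The table holds 82 such genes, of which 55 had at least 1 count in nrpb2-3 and 2 in Columbia-0. Their counts summed to 2, 7 and 3 in the Columbia-0 libraries and to 839, 1076 and 2368 in nrpb2-3. The family of egg cell-secreted proteins, which the egg cell releases at fertilization to make sperm ready for fusion, summed to 16, 25 and 12 counts in Columbia-0 and to 1220, 1341 and 2914 in nrpb2-3 over 13 genes. The LURE1 peptides, which synergid cells of the ovule secrete to attract the pollen tube, had 0 counts in every Columbia-0 library and 81, 128 and 465 in nrpb2-3 over 5 genes. In each family nrpb2-3 replicate 3 held the most, every nrpb2-3 library lay far above every Columbia-0 library, and no ssrp1-2 or spt16-2 library passed 23 counts in any of these 3 families. These families were chosen by their descriptions after their values were seen, and many members were tested only because nrpb2-3 expressed them (16, 8 and 3 of the 3 families were), so no share of members called is given.

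**Figure D2:**
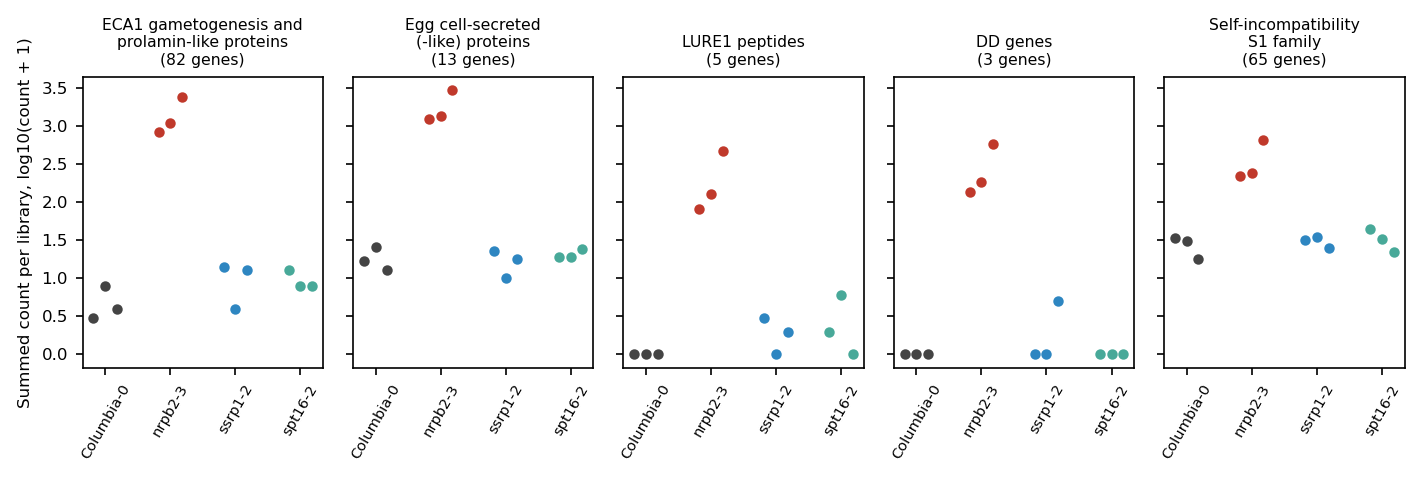
Summed counts per library (y axis, log10 of count + 1) of 5 gene families, with 1 point per library, grouped by genotype. The nrpb2-3 points stand above all 9 others in every panel.

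AT2G14378, an egg cell-secreted-like protein, had 0 counts in the Columbia-0, ssrp1-2 and spt16-2 libraries and 6.17, 7.22 and 12.4 CPM in nrpb2-3. Against 3 counts over the Columbia-0 group, taken as the limit that 0 counts allow, it was at least 304-fold higher (edgeR adjusted p = 7.6e-05). Its relative AT2G27315 was at least 157-fold higher and AT5G54062 at least 114-fold. DD11, named for its loss in a mutant without embryo sacs, had 1.72, 2.76 and 5.82 CPM in nrpb2-3 and 0 counts in the other 9 libraries, at least 121-fold higher. AT3G11990 and AT4G13263, of the ECA1 family, were at least 116-fold and 101-fold higher, and AT5G04047, of the self-incompatibility S1 family, at least 108-fold. DESeq2 did not call AT2G27315 (adjusted p = 0.062), DD11 (0.074), AT3G11990 (0.076) and AT5G04047 (0.08). The 3 nrpb2-3 libraries lay above the Columbia-0 libraries, which held no count, in each of these genes. The 12 widest changes were picked among genes without overlap, so this separation is no separate support.

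Regulators and founding members of these families were looked up next. MYB98, the transcription factor that synergid cells need to make LURE peptides, had 0 counts in Columbia-0 and 15, 35 and 98 in nrpb2-3 (0.307, 0.681 and 1.67 CPM), at least 31.3-fold higher (edgeR adjusted p = 0.0018). It was chosen after its values were seen, as were the next genes. LURE1.2 was at least 20.5-fold higher (adjusted p = 0.0020) and LURE1.3 at least 40.6-fold (adjusted p = 0.013), and DESeq2 did not call LURE1.3 (0.15). LURE1.1, with 9, 14 and 59 counts in nrpb2-3 and 0 in Columbia-0, was too low to be tested. Of the EC1 genes, the founding members of the egg cell-secreted family, EC1.5 rose from 1 count over Columbia-0 to 47, 18 and 71 counts (edgeR log2 fold change 6.08 ± 0.99, adjusted p = 0.00069), a CPM ratio of 90.8 with a 95% counting interval of 16.0 to 3612. EC1.4 had 11, 17 and 10 counts in Columbia-0 and 8, 3 and 37 in nrpb2-3, overlapping groups that the test did not separate (adjusted p = 0.76). EC1.1, EC1.2 and EC1.3 had 15, 2 and 18 counts over nrpb2-3 and none in Columbia-0.

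Genes of ovules, carpels, petals and pollen were also looked up after their values were seen. Several had too few counts to be tested, so they could not have been called in either direction. STK and INO, which act in ovules and their outer integument, had 0 counts in every library of both genotypes, and so did VGD1, a pollen gene. SHP2, a carpel gene, had 1 count over Columbia-0 and none in nrpb2-3. AP3, which specifies petals and stamens, stood at 0.234, 0 and 0.107 CPM in Columbia-0 and 0.0615, 0.0973 and 0.0341 CPM in nrpb2-3, overlapping levels that did not pass the test (adjusted p = 0.44). The summed level of the flower markers VGD1, AP3 and PI was 0.26 to 0.965 CPM in Columbia-0 and 0.331 to 0.664 CPM in nrpb2-3. The source of the embryo sac transcripts in nrpb2-3 was not tested, and in these whole seedlings a difference in the number of cells of a type and one in the RNA per cell cannot be told apart, here and in all results below. Over the whole table, 49 genes had at most 1 count in each of the 9 other libraries and at least 10 in each nrpb2-3 library. Of these, 27 belong to the families above and 47 code for proteins. The reverse held for 1 gene, AP1, which starts floral meristems. Many ECA1 genes lie in arrays of near-identical copies, and how the authors counted reads shared between copies is not given, so the summed counts are firmer than any single member's.

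The other 5 of the 12 widest increases belong to none of these families. AT5G45910, a GDSL-type lipase, was at 5.25, 6.44 and 10.8 CPM in nrpb2-3 and had 0 counts in Columbia-0, at least 265-fold higher. A pair of aspartyl proteases, AT2G35615 and AT1G31450, were at least 153-fold and 114-fold higher, the first not called by DESeq2 (0.063). AT2G39851, annotated as a proteinase inhibitor propeptide, was at least 166-fold higher. AT5G03090, known from its response in a methionine over-accumulating mutant, had 1 count over Columbia-0 and 23.9, 26.7 and 29.0 CPM in nrpb2-3 (ratio 2830.1, 95% counting interval 508 to 111809). It held 4 to 19 counts in each FACT mutant library and was higher in nrpb2-3 than their mean too (6.28 ± 0.26, adjusted p = 1.1e-08). Against that mean 15.6% of tested genes were higher and 15% lower in nrpb2-3, and the comparison uses the same nrpb2-3 libraries as that with Columbia-0.

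At the other end, a microRNA precursor, regulators and defence genes showed the widest decreases. MIR169m, a precursor of the miR169 family that targets subunits of the transcription factor NF-Y, stood at 2.75, 1.62 and 1.88 CPM in Columbia-0 and 0.0410, 0.0973 and 0.0341 CPM in nrpb2-3 (edgeR log2 fold change −5.12 ± 0.46, adjusted p = 1.5e-05). IAA6, a repressor of auxin responses, fell from 1.99 ± 0.667 to 0.0997 ± 0.0866 CPM (SD, n = 3; edgeR log2 fold change −4.32 ± 0.64, adjusted p = 0.00042). CHAT, which makes the green leaf volatile hexenyl acetate, fell from 1.98 ± 0.518 to 0.0857 ± 0.0876 CPM (−4.52 ± 0.62, adjusted p = 0.00027). The glutaredoxin gene AT3G21460 fell (−4.05 ± 0.52, adjusted p = 0.00037), as did AT1G47370, which encodes a TIR domain protein of the immune receptor type (−5.24 ± 0.61, adjusted p = 8.9e-05), and AT3G55646, of no named function, with libraries of 12.5, 17.1 and 17.2 CPM against 0.553, 0.740 and 0.579 CPM (−4.64 ± 0.22, adjusted p = 9.7e-08). All 6 were also lower than in the FACT mutants, with log2 fold changes between −4.99 and −2.93.

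The 4 defensins among the widest decreases, PDF1.3, PDF1.2c, PDF1.2 and PDF1.2b, differed widely within the wild type. PDF1.2c, for instance, held 652, 184 and 9.32 CPM in Columbia-0 replicates 1 to 3 and 0.143, 1.87 and 0.136 CPM in nrpb2-3 (edgeR log2 fold change −8.63 ± 1.75, adjusted p = 0.0061). Its call was lost in a fit of the 6 libraries alone (0.055) and it was not called against the FACT mutants (−3.90 ± 1.43, adjusted p = 0.068). DIN11, a gene induced in darkness, also varied in Columbia-0 (11.5, 13.3 and 2.26 CPM, against 0.287, 0.564 and 0.238 CPM in nrpb2-3; −4.63 ± 0.98, adjusted p = 0.0064). Against the FACT mutants DIN11 was called only with a replicate block (adjusted p = 0.0019; 0.074 without), and PDF1.2 only without it (0.035; 0.07 with the block). AG, the floral regulator of stamens and carpels, was among the 12 too, and its fold change went from −5.74 ± 0.68 to −8.95 without nrpb2-3 replicate 1, the nrpb2-3 library that held all 4 of its counts in that genotype.

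Where genes of the transcription machinery around Pol II were called, they were higher, by small amounts. Of 37 general transcription factors and enzymes of the Pol II tail, 17 were higher and 0 lower, with a median log2 fold change of 0.35 against 0.05 over all tested genes. XPB1, a helicase of TFIIH that opens promoters, stood at 17.3, 20.03 and 14.9 CPM in Columbia-0 and 35.3, 32.0 and 32.1 CPM in nrpb2-3 (edgeR log2 fold change 0.93 ± 0.12, adjusted p = 0.00020), groups that did not overlap. CPL3, a phosphatase of the Pol II tail, rose from 17.0 ± 2.28 to 27.8 ± 1.73 CPM (0.71 ± 0.12, adjusted p = 0.00084). HAF01 and TAF2, subunits of TFIID, the factor that recognizes promoters, rose by 0.62 ± 0.13 and 0.60 ± 0.14. Each of these 4 was also higher than in the FACT mutants, XPB1 by 0.84 ± 0.10, adjusted p = 9.6e-05. The higher calls of the list numbered 8 to 11 without any 1 of Columbia-0 replicates 1 and 2 and nrpb2-3 replicates 1 and 3, and 10 in a fit of the 6 libraries alone.

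Mediator followed with 5 of 18 measured subunits higher, 0 lower and a median of 0.28. MED16, annotated here as SFR6 and needed for cold acclimation, was at 16.6, 26.2 and 22.1 CPM in Columbia-0 and 38.6, 37.6 and 40.3 CPM in nrpb2-3 (edgeR log2 fold change 0.84 ± 0.15, adjusted p = 0.0014). MED12, annotated as CCT, a subunit of the kinase module, rose by 0.64 ± 0.14, adjusted p = 0.0039, and MED19A by 0.68 ± 0.16, adjusted p = 0.0062. MED12 was called against the FACT mutants only with a replicate block (0.045; 0.0997 without). The count of higher subunits was 3 without Columbia-0 replicate 2 or 3, and 3 in the 6 libraries alone. Of 7 tested subunits of Pol I and Pol III, edgeR called 0 in either direction (median 0.14), and the count was 0 by DESeq2 and at an unadjusted p under 0.05. The higher calls were 1 without Columbia-0 replicate 3. In the general transcription factor, Mediator, splicing and 3′ end lists the lower genes also numbered 0 at an unadjusted edgeR p under 0.05 and by DESeq2.

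Among factors that act on the RNA after it is made, higher calls again outnumbered lower ones, except in RNA decay. Of 30 splicing factors 7 were higher and 0 lower (median 0.21), led by SR34b at 3.42, 2.86 and 3.73 CPM in Columbia-0 and 11.3, 5.86 and 9.64 CPM in nrpb2-3 (edgeR log2 fold change 1.42 ± 0.23, adjusted p = 0.00062) and RS31a (1.12 ± 0.15, adjusted p = 0.00026), both serine/arginine-rich proteins that choose splice sites. SR30 (0.66 ± 0.14) and SUA (0.53 ± 0.12), a suppressor of cryptic splicing, rose too. By library the median level of the splicing list overlapped, relative to the Columbia-0 mean. It was 0.35, 0.21 and 0.03 in nrpb2-3 and −0.26, 0.14 and 0.11 in Columbia-0. The FACT mutant libraries ranged from −0.05 to 0.21. Of 20 nuclear pore and mRNA export genes 4 were higher, or 20% against 15.8% of all tested genes, and 0 lower (median 0.24). The lower genes numbered 0 by DESeq2, 1 at an unadjusted edgeR p under 0.05 and 1 without Columbia-0 replicate 1. Among the higher were SAC3A (0.75 ± 0.15) and SAC3B (0.59 ± 0.14), scaffolds of the export complex, and NUA (0.69 ± 0.15), a protein of the pore's inner basket. Of 18 factors for 3′ end processing 3 were higher, or 16.7% against 15.8% of all tested genes, and 0 lower (median 0.19). FIP1[V] stood at 0.50 ± 0.11. The higher calls of this list were 1 without Columbia-0 replicate 1 or nrpb2-3 replicate 1, and 1 in the 6 libraries alone. RNA decay genes showed 1 higher and 1 lower of 25 (median 0.11). The higher count was 0 without any 1 of Columbia-0 replicates 1 and 3 and nrpb2-3 replicates 1, 2 and 3. The lower count was 0 without any 1 of Columbia-0 replicates 1, 2 and 3 and nrpb2-3 replicates 1 and 3.

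Many members of these lists are long genes, and fold change varied with transcript length over all genes. In the shortest 10% of tested protein-coding genes (29 to 909 nucleotides) the median log2 fold change was −0.16, with 9.76% of genes higher and 20.9% lower. In the longest 10% (3123 to 16593 nucleotides) the median was 0.30, with 33.1% higher and 5.22% lower, and of the 10 length classes each from the third on had a higher median than the one before. The difference between the longest and the shortest class was 0.41, 0.38 and 0.45 in the nrpb2-3 libraries and −0.13, 0.07 and 0.08 in Columbia-0, relative to the Columbia-0 mean. The 6 FACT mutant libraries ranged from 0.05 to 0.43, the highest being spt16-2 replicate 2, so they overlap nrpb2-3 in this measure. With a smooth length trend removed, the median of the general transcription factor list was 0.21, that of Mediator 0.02, of splicing factors 0.08, of export 0.03 and of 3′ end processing 0.02. In lists given below the same step moved the median of kinesins from 0.58 to 0.32 and of strigolactone genes from 0.37 to 0.05. WRKY genes went from 0.19 to 0.00, cytokinin genes from 0.16 to −0.01 and NLR genes from 0.04 to −0.29. Root and vascular genes stayed at 0.72 and 0.48. The part of length in the values of all these lists was tested no further.

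**Figure D3:**
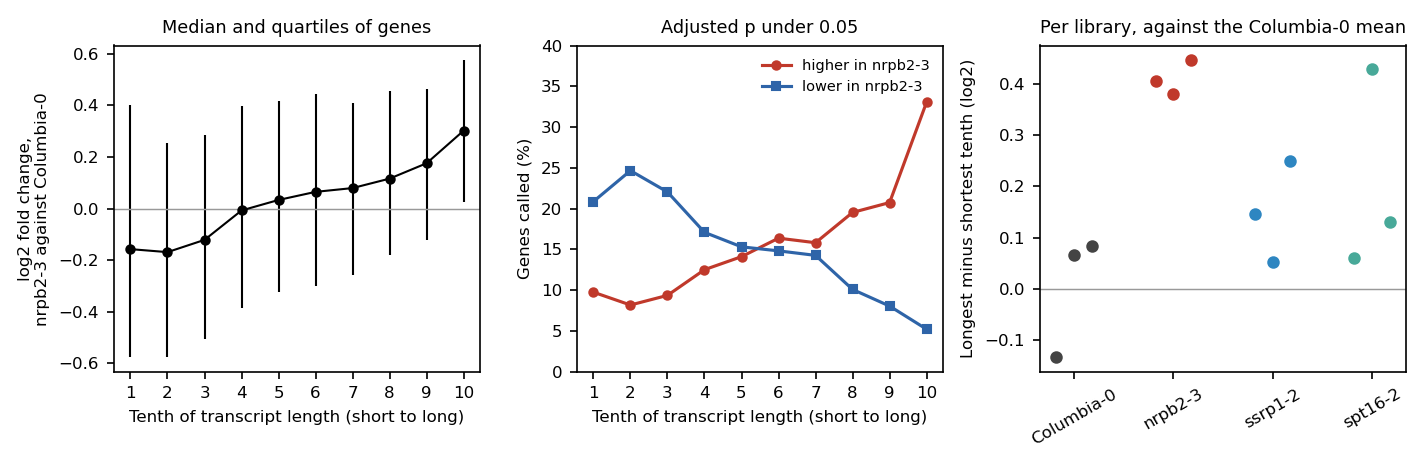
Left, median and quartiles of the log2 fold change by class of transcript length (10 classes of like size). Middle, percentage of genes called higher (red) and lower (blue) in each class, 9.76% and 20.9% in the shortest and 33.1% and 5.22% in the longest. Right, the median level of the longest class minus the shortest in each library (point), in log2 units relative to the Columbia-0 mean, with nrpb2-3 between 0.38 and 0.45.

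The pattern by exon number depended on length. Genes of 15 exons or more were higher in 30.2% and lower in 6.86% of cases, against 13.4% and 11.6% of genes with 1 exon. Among transcripts of 2315 nucleotides or more the share of higher genes went from 15.7% with 1 exon to 33.7% with 15 or more. Among those of up to 1246 nucleotides it went the other way, from 11.1% with 1 exon to 5.16% with 8 to 14.

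Non-coding RNAs differed by class. Of 307 tested long non-coding RNAs, out of 3780 in the table, 54 were higher, or 17.6% against 15.8% of all tested genes. Lower were 17, or 5.54% against 15.1% (median 0.25). The higher calls were 26 to 32 without Columbia-0 replicate 2 or nrpb2-3 replicate 3. Their median level by library overlapped, relative to the Columbia-0 mean. It was 0.20, 0.02 and 0.23 in nrpb2-3 and 0.03 in Columbia-0 replicate 1. AT1G67105 rose from 0.468, 0.260 and 0.215 CPM to 79.9, 57.5 and 112 CPM (edgeR log2 fold change 8.04 ± 0.66, adjusted p = 6.2e-05), and AT1G06963 from 5 counts over Columbia-0 to 266, 237 and 304 (6.67 ± 0.53, adjusted p = 5.8e-06). AT2G05914 fell from 4.90 ± 1.42 to 0.880 ± 0.408 CPM (−2.46 ± 0.33, adjusted p = 0.00020), although it overlaps another annotated gene. Of 65 small nucleolar RNAs, which guide chemical changes of ribosomal RNA, 0 were higher and 23.1% were lower (median −1.05). Many had low levels. With 0.5 CPM added to each level, their median relative to the Columbia-0 mean was only −0.24, −0.45 and −0.30 in nrpb2-3. In Columbia-0 it was −0.04, −0.11 and 0.13. Of 369 small nucleolar and small nuclear RNAs in the table, 71 were tested. With the 6 tested small nuclear RNAs added, the higher genes numbered 0, but 1 by DESeq2, 2 by limma, 4 at an unadjusted edgeR p under 0.05, 2 without Columbia-0 replicate 3 and 1 without nrpb2-3 replicate 3. AT3G05355 stood at 1.93, 1.76 and 2.36 CPM in Columbia-0 and 0.512, 0.370 and 0.238 CPM in nrpb2-3 (−2.44 ± 0.35, adjusted p = 0.00035). Of 26 microRNA precursors 7.69% were higher and 30.8% lower (median −0.56).

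Transcripts of the cytosolic ribosome were called lower at most of their genes. Of 110 tested ribosomal protein genes 67 were lower and 1 higher, and the median log2 fold change was −0.57. RPL16B, of the large subunit, held 342, 342 and 341 CPM in Columbia-0 and 164, 171 and 142 CPM in nrpb2-3, without overlap (edgeR log2 fold change −1.104 ± 0.12, adjusted p = 5.9e-05). AT3G53890, which encodes S21e of the small subunit, fell from 209 ± 23.56 to 87.3 ± 9.14 CPM (−1.26 ± 0.15, adjusted p = 0.00013) and RPS15A from 346 ± 9.86 to 183 ± 8.19 CPM (−0.91 ± 0.13, adjusted p = 0.00026). With 1 library left out the list held 49 (without Columbia-0 replicate 3) to 75 lower members (without Columbia-0 replicate 1). The exception, AT2G42650, an L1p family protein at 0.85 ± 0.27, was not called without Columbia-0 replicate 1 (0.099), without nrpb2-3 replicate 3 (0.13) or in the 6 libraries alone (0.056). With library totals as the scale the list had 15 higher and 10 lower members, while its median stayed 0.64 under that of all genes (0.62 under it with TMM). Ribosomal protein genes come in near-identical pairs, so single paralogs are uncertain.

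The proteasome, which breaks down proteins marked with ubiquitin, had lower calls on the scale used. Of 39 tested subunit genes 14 were lower and 0 higher (median −0.28; at an unadjusted p under 0.05, 1 was higher by edgeR, and DESeq2 called 0 higher). With library totals the list had 18 higher and 0 lower members. PAA2, a subunit of the core, was at 101, 77.0 and 94.4 CPM in Columbia-0 and 56.6, 66.1 and 64.2 CPM in nrpb2-3 (edgeR log2 fold change −0.54 ± 0.12, adjusted p = 0.0046). RPT2a (−0.44 ± 0.10) and RPN12a (−0.48 ± 0.11), of the regulatory particle, fell as well. These 3 decreases are relative to the bulk of transcripts only, since with library totals their fold changes were 0.00, 0.10 and 0.05. The count of lower members was 5 to 7 without any 1 of Columbia-0 replicate 3 and nrpb2-3 replicates 1 and 3, and 8 in the 6 libraries alone.

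Other parts of protein quality control held few calls. Of 34 genes of the unfolded protein response of the endoplasmic reticulum 2 were higher and 0 lower (median 0.06; higher calls 1 without any 1 of Columbia-0 replicates 1 and 2 and nrpb2-3 replicates 1 and 3). The lower genes numbered 1 by DESeq2, 2 at an unadjusted edgeR p under 0.05, 3 with a replicate block and 1 without Columbia-0 replicate 2 or nrpb2-3 replicate 3. NAC103, a transcription factor of that response, rose from 0.468, 1.39 and 1.101 CPM to 2.85, 4.63 and 4.65 CPM (edgeR log2 fold change 2.03 ± 0.34, adjusted p = 0.00078), but did not pass the test against the FACT mutants (0.15 ± 0.27, adjusted p = 0.69). BZIP17, a membrane-bound regulator, rose by 0.64 ± 0.19, adjusted p = 0.018, a call lost without any 1 of Columbia-0 replicates 1 and 2 and nrpb2-3 replicates 1 and 3 (0.064 to 0.073). Of 28 autophagy genes 2 were higher and 1 lower (median 0.07). ATG8G, which coats autophagosomes, rose by 0.68 ± 0.19 and the scaffold gene AT4G30790 (ATG11) by 0.57 ± 0.17, and both were lost without nrpb2-3 replicate 1 (0.08 and 0.058), the second also without Columbia-0 replicate 3 (0.076) or nrpb2-3 replicate 2 (0.052), and the first in the 6 libraries alone (0.055). ATG10, which conjugates ATG12, fell by 0.69 on the log2 scale (adjusted p = 0.0060).

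In the plastid, most genes that make pigments were lower. Of 46 tested genes of tetrapyrrole and carotenoid synthesis 33 were lower and 0 higher, with a median of −0.57. HEME2, an enzyme on the way to chlorophyll and haem, fell from 388 ± 28.6 to 213 ± 28.0 CPM (edgeR log2 fold change −0.87 ± 0.12, adjusted p = 0.00032). LUT1 and CYP97A3, the hydroxylases that make lutein, had log2 fold changes of −0.74 ± 0.10 and −0.75 ± 0.11. NPQ1, the violaxanthin de-epoxidase that turns xanthophylls over in bright light, held 109, 96.4 and 94.2 CPM in Columbia-0 and 49.9, 61.7 and 45.3 CPM in nrpb2-3 (−0.93 ± 0.13, adjusted p = 0.00029), without overlap. All 4 were lower than in the FACT mutants too, NPQ1 with a log2 fold change of −0.73 ± 0.12, adjusted p = 0.00052. Leaving out any 1 of the 6 libraries left 27 to 33 of the 46 lower, and 1 was higher without Columbia-0 replicate 2. DESeq2 also called 1 member higher, and at an unadjusted p under 0.05 edgeR had 1. With library totals the list had 2 higher and 7 lower members.

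The nuclear genes that run plastid transcription and RNA editing had 18 of 47 lower and 0 higher, the latter also by DESeq2 and at an unadjusted edgeR p under 0.05 (median −0.20; 3 lower and 8 higher with library totals; lower calls 11 without Columbia-0 replicate 2). SIG2, a sigma factor of the plastid polymerase, stood at 141, 174 and 175 CPM in Columbia-0 and 92.1, 104 and 77.9 CPM in nrpb2-3 (edgeR log2 fold change −0.84 ± 0.13, adjusted p = 0.00063). PTAC16, a protein of plastid nucleoids, fell from 1304 ± 101 to 610.3 ± 182 CPM (−1.096 ± 0.21, adjusted p = 0.0017), CFM3A, a factor for intron splicing, by 1.03 on the log2 scale and MORF9, an editing factor, by 0.67. Antioxidant enzymes had 19 lower and 2 higher of 40 (median −0.40). The lower calls numbered 11 to 12 without any 1 of Columbia-0 replicate 3 and nrpb2-3 replicates 1 and 3. The higher calls numbered 1 without any 1 of Columbia-0 replicates 2 and 3 and nrpb2-3 replicates 2 and 3. The thylakoid ascorbate peroxidase TAPX fell from 203 ± 19.5 to 89.2 ± 15.9 CPM (−1.19 ± 0.14, adjusted p = 9.1e-05), DHAR3, which regenerates ascorbate in the chloroplast, by 0.88 and the chloroplast thioredoxin reductase NTRC by 0.65. VTC5, a gene of ascorbate synthesis, went up (0.62 ± 0.13, adjusted p = 0.0034).

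The 5 markers of leaf mesophyll were all called lower, at a median of −1.36, and their summed level was 63664 to 75043 CPM in Columbia-0 and 16896 to 35162 CPM in nrpb2-3. RCA, one of them, held 11499.8, 10483 and 11119.8 CPM and 4864, 4560.3 and 2839 CPM. None of the 5 was at 0, and 4 to 5 were called with any 1 library left out. The pigment, plastid and antioxidant lists moved with these markers, the pigment and antioxidant lists most in nrpb2-3 replicate 3 (−0.79 and −0.54 relative to the Columbia-0 mean), and the part of mesophyll content in their values was not tested.

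Nutrient genes went both ways. In nitrogen metabolism 10 of 39 genes were lower and 4 higher (median −0.20). Relative to the Columbia-0 mean, the list's median level was −0.09, −0.12 and −0.33 in nrpb2-3 and −0.11 in Columbia-0 replicate 3, so the groups overlapped. NRT1.1, the dual-affinity nitrate transporter and sensor, held 153, 114 and 138 CPM in Columbia-0 and 44.3, 50.7 and 49.5 CPM in nrpb2-3, without overlap (edgeR log2 fold change −1.49 ± 0.17, adjusted p = 7.1e-05). The cytosolic glutamine synthetase gene GLN1;4 stood at 21.7, 12.7 and 13.2 CPM against 1.29, 2.16 and 1.33 CPM (−3.31 ± 0.28, adjusted p = 1.6e-05), and GLN1;1, annotated as GSR 1, fell by 1.31 on the log2 scale. GLU2, a ferredoxin-dependent glutamate synthase, rose (0.70 ± 0.12, adjusted p = 0.00083). Against the FACT mutants NRT1.1 was lower by a like amount (−1.62 ± 0.15, adjusted p = 1.5e-05), and GLU2 was called higher only with a replicate block (0.017; 0.052 without).

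Sulfate genes had 7 lower and 2 higher of 32 (median 0.08; lower calls 4 without Columbia-0 replicate 2 or nrpb2-3 replicate 1, higher calls 1 without Columbia-0 replicate 3 or nrpb2-3 replicate 1). APR3, which reduces activated sulfate, fell from 92.0 ± 28.1 to 44.95 ± 5.46 CPM (−1.03 ± 0.19, adjusted p = 0.0013), GSH2, the last enzyme of glutathione synthesis, from 128 ± 19.9 to 77.3 ± 8.07 CPM (−0.73 ± 0.13, adjusted p = 0.0016) and OASB, a plastid cysteine synthase, by 0.86. SULTR1;3, a sulfate transporter of the phloem, rose from 0.234, 0.0289 and 0.134 CPM to 1.74, 1.01 and 1.16 CPM (3.27 ± 0.66, adjusted p = 0.0026).

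Of 30 phosphate genes 6 were higher, or 20% against 15.8% of all tested genes, and 0 lower (median 0.35). The higher calls were 4 to 8 with 1 library left out and 11 with a replicate block. The lower genes numbered 1 by DESeq2, with a replicate block or without nrpb2-3 replicate 2 or 3, and 2 at an unadjusted edgeR p under 0.05. PHO2, the ubiquitin conjugase that limits phosphate uptake and is a target of miR399, stood at 93.8, 86.4 and 104 CPM in Columbia-0 and 238, 181 and 252 CPM in nrpb2-3 (edgeR log2 fold change 1.24 ± 0.14, adjusted p = 6.9e-05). PHO1, which loads phosphate into the xylem and is itself held down by PHO2, rose from 10.8 ± 3.31 to 25.8 ± 2.16 CPM (1.26 ± 0.20, adjusted p = 0.00058), and its relative PHO1;H1 by 0.98 ± 0.24. PHT1;4, an uptake transporter, rose by 1.04 ± 0.23, or 0.69 without nrpb2-3 replicate 1, the library with the highest level. PHO2 was above the FACT mutants (0.87 ± 0.11, adjusted p = 0.00016), whereas PHO1 was called above them only with a replicate block (0.034; 0.052 without).

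Iron genes had 9 higher and 5 lower of 35 (median 0.45), the lower calls being 3 without nrpb2-3 replicate 3. Relative to the Columbia-0 mean, the list's median level was 0.37, 0.029 and 0.26 in nrpb2-3 and 0.030 in Columbia-0 replicate 3, so the groups overlapped. FRD3, which releases citrate into the xylem to carry iron, rose from 0.176, 0.289 and 0.779 CPM to 5.19, 2.86 and 4.84 CPM (edgeR log2 fold change 3.35 ± 0.48, adjusted p = 0.00032). YSL2, a transporter of iron bound to nicotianamine, rose from 3.05 ± 0.4999 to 16.0 ± 4.42 CPM (2.39 ± 0.23, adjusted p = 2.6e-05). FRO6, the leaf ferric reductase, fell from 251 ± 50.9 to 102 ± 26.7 CPM (−1.30 ± 0.20, adjusted p = 0.00045), and HA2, the main proton pump of the root plasma membrane, also active in shoots, from 348 ± 32.0 to 168 ± 9.18 CPM (−1.05 ± 0.12, adjusted p = 0.00010). All 4 differed from the FACT mutants in the same direction, FRD3 by 3.0005 ± 0.36, adjusted p = 9.1e-05.

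Sugar genes showed 8 higher and 10 lower of 61 (median −0.07). SWEET11, which exports sucrose for phloem loading, held 169.9, 174 and 179 CPM in Columbia-0 and 68.9, 75.3 and 52.3 CPM in nrpb2-3 (edgeR log2 fold change −1.41 ± 0.15, adjusted p = 5.9e-05), and SUC2, which loads it into the phloem, fell from 211 ± 51.1 to 98.4 ± 33.6 CPM (−1.098 ± 0.26, adjusted p = 0.0077). SWEET1, a glucose transporter, rose from 13.8 ± 3.86 to 32.4 ± 2.91 CPM (1.23 ± 0.17, adjusted p = 0.00027). In trehalose metabolism, TPPI, a trehalose-phosphate phosphatase, rose from 0.146, 0.173 and 0.161 CPM to 3.38, 1.36 and 3.66 CPM (4.10 ± 0.54, adjusted p = 0.00019) and TRE1, which splits trehalose, fell by 1.202 on the log2 scale.

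Of 40 starch genes 6 were higher and 11 lower (median −0.16; lower calls 7 without Columbia-0 replicate 3 or nrpb2-3 replicate 3). GBSS1, which makes amylose, held 23.0, 20.7 and 24.2 CPM in Columbia-0 and 94.5, 41.2 and 87.5 CPM in nrpb2-3 (edgeR log2 fold change 1.72 ± 0.23, adjusted p = 0.00027), so nrpb2-3 replicate 2 lay nearest to the wild type while staying above it. APL4, a large subunit of ADP-glucose pyrophosphorylase, which acts in synthesis, rose by 1.29 ± 0.22. Among genes of breakdown, BAM3, annotated as CT-BMY, the main plastid beta-amylase, fell from 168 ± 24.9 to 87.3 ± 16.5 CPM (−0.94 ± 0.16, adjusted p = 0.00093) and LSF1, a starch-binding phosphatase homologue, from 32.2 ± 2.82 to 16.4 ± 2.95 CPM (−0.97 ± 0.14, adjusted p = 0.00033).

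**Figure D4:**
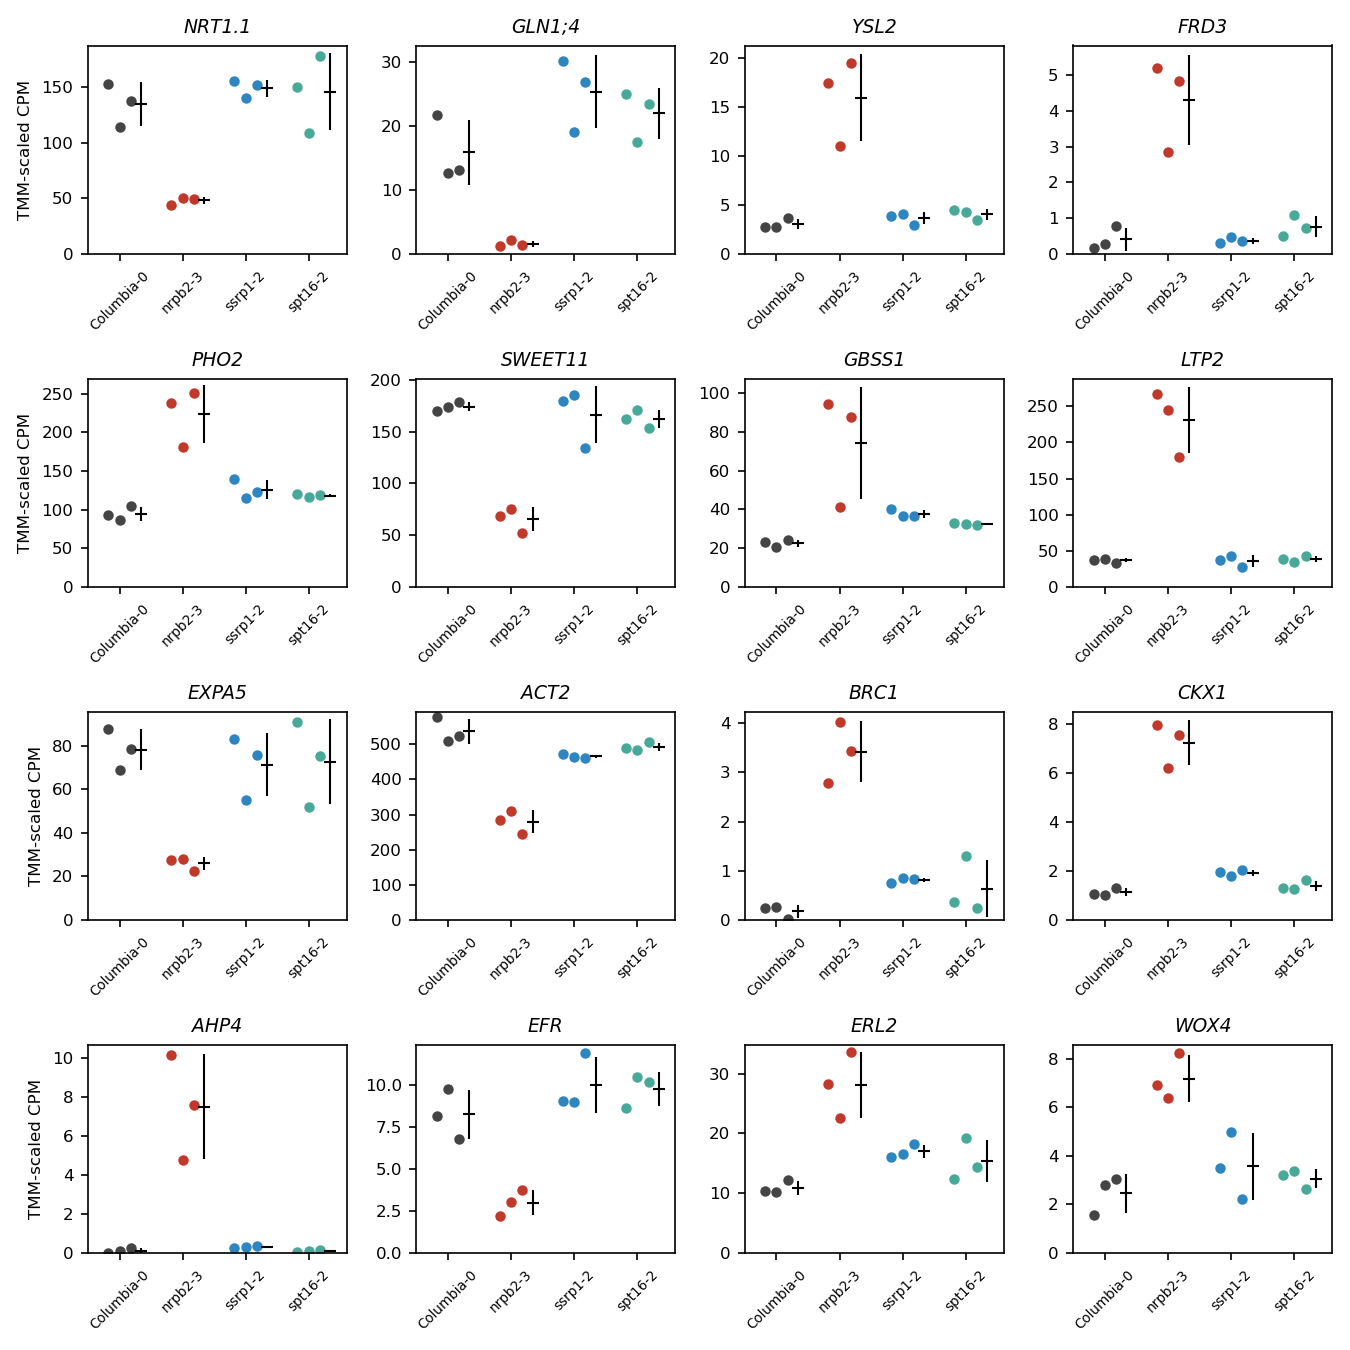
CPM (y axis, from 0) of 16 genes in each of the 12 libraries (coloured points), with the mean and SD of each genotype beside them in black. In each panel the 3 nrpb2-3 libraries lie apart from the 3 Columbia-0 libraries, as in NRT1.1 with 44.3 to 50.7 CPM against 114 to 153 CPM.

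Cytoskeletal proteins were called lower more often than higher, and their motors the other way round. Of 34 tubulin, actin and related genes 16 were lower and 3 higher (median −0.42). ACT2, the main vegetative actin and a common reference gene, held 577, 510.3 and 523 CPM in Columbia-0 and 286, 309 and 246 CPM in nrpb2-3 (edgeR log2 fold change −0.94 ± 0.12, adjusted p = 0.00016), without overlap. TUB4 fell by 0.81 on the log2 scale, TUA3 by 0.74 and ADF1, which severs actin filaments, by 0.76. The higher calls of the list were 1 without any 1 of Columbia-0 replicates 1 and 3 and nrpb2-3 replicate 1. Of 27 kinesins, which move along microtubules, 12 were higher and 3 lower (median 0.58, or 0.32 with the length trend removed). Their higher calls were 3 to 5 without any 1 of Columbia-0 replicate 1 and nrpb2-3 replicates 2 and 3, and 4 in the 6 libraries alone. ARK3 rose by 0.78 ± 0.14, adjusted p = 0.0011, and POK2, which places the division plane, stood at 4.27, 9.01 and 8.51 CPM in Columbia-0 and 13.4, 15.3 and 22.6 CPM in nrpb2-3 (1.23 ± 0.30, adjusted p = 0.0095). POK2 was called above the FACT mutants only with a replicate block (0.021; 0.071 without).

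Genes of growing walls were lower in part. Among 21 expansins, which loosen walls, 6 were lower and 1 higher (median −0.28). EXPA5 stood at 87.7, 68.8 and 78.4 CPM in Columbia-0 and 27.8, 27.8 and 22.5 CPM in nrpb2-3 (edgeR log2 fold change −1.59 ± 0.20, adjusted p = 0.00017) and EXPA8 fell from 136 ± 65.02 to 23.9 ± 9.21 CPM (−2.51 ± 0.52, adjusted p = 0.0059). EXPB3, the member called higher (0.67 ± 0.20), lost its call without Columbia-0 replicate 1 (0.065), nrpb2-3 replicate 1 (0.056) or nrpb2-3 replicate 3 (0.059). Xyloglucan endotransglucosylases had 5 lower and 4 higher of 24 (median −0.16; higher calls 2 without Columbia-0 replicate 1 or nrpb2-3 replicate 2), with XTH17 at −1.71 ± 0.38, XTH4 at −0.84 ± 0.17 and XTH5 at 0.92 ± 0.21. Of 44 genes of cellulose and secondary walls 4 were lower and 3 higher (median 0.17; higher calls 5 without Columbia-0 replicate 2). CTL1, annotated as POM1, a chitinase-like protein needed for cellulose assembly, fell from 744 ± 106 to 378 ± 78.1 CPM (−0.98 ± 0.16, adjusted p = 0.00086) and FLA12, a fasciclin-like protein of secondary walls, by 1.35 on the log2 scale.

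Cuticle and lignin genes showed no common direction. Of 47 wax and cutin genes 6 were higher and 7 lower (median −0.04; lower calls 4 without Columbia-0 replicate 1 or nrpb2-3 replicate 3). LTP2, a lipid transfer protein of the epidermis, rose from 37.8, 39.1 and 33.8 CPM to 268, 245 and 180.5 CPM (edgeR log2 fold change 2.65 ± 0.19, adjusted p = 3e-06) and was as far above the FACT mutants (2.63 ± 0.15, adjusted p = 1.9e-07). PEL3, an acyltransferase of the cuticle, rose by 0.81 ± 0.14, and KCS9, which lengthens fatty acids for wax, fell by 0.75 on the log2 scale. FAR1, which makes suberin alcohols, stood at 0.97 ± 0.21. Of 41 lignin and phenylpropanoid genes 4 were higher and 8 lower (median −0.00). HCT, a core enzyme of monolignol synthesis, fell from 191 ± 30.4 to 96.9 ± 17.9 CPM (−0.98 ± 0.18, adjusted p = 0.0017), while 4CL2 rose from 4.47 ± 0.846 to 11.5 ± 0.640 CPM (1.36 ± 0.20, adjusted p = 0.00038) and CCR2, a cinnamoyl-CoA reductase tied to stress, from 0.965, 0.404 and 1.18 CPM to 2.85, 3.78 and 4.53 CPM (2.122 ± 0.36, adjusted p = 0.00086).

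Among hormone genes, those of branching included large increases. Of 18 strigolactone and karrikin genes 7 were higher and 3 lower (median 0.37, or 0.05 with the length trend removed). BRC1, the TCP factor that keeps axillary buds dormant, rose from 0.234, 0.260 and 0.0269 CPM to 2.79, 4.03 and 3.44 CPM (edgeR log2 fold change 4.30 ± 0.64, adjusted p = 0.00045), and its paralog TCP12 from 0.673, 0.289 and 0.0806 CPM to 4.12, 2.67 and 3.03 CPM (3.24 ± 0.52, adjusted p = 0.00062). Both were higher than in the FACT mutants, BRC1 by 2.24 ± 0.44, adjusted p = 0.0021. SMXL5, annotated as AT5G57130, which promotes phloem formation, rose from 10.04 ± 2.21 to 34.8 ± 10.1 CPM (1.79 ± 0.20, adjusted p = 6.4e-05). In synthesis the members split, with MAX1, annotated as CYP711A1, higher (0.96 ± 0.15, adjusted p = 0.00064) and D27, the first enzyme, lower (−0.92 ± 0.24, adjusted p = 0.011). The lower calls numbered 1 without nrpb2-3 replicate 3.

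Cytokinin genes had 9 higher and 5 lower of 37 (median 0.16), and 5 higher by limma on the second deposited table. CKX1, an oxidase that destroys cytokinins, rose from 1.05, 1.01 and 1.32 CPM to 7.97, 6.23 and 7.56 CPM (edgeR log2 fold change 2.68 ± 0.22, adjusted p = 6.3e-06), whereas its relative CKX4 fell from 12.5 ± 5.02 to 2.57 ± 1.01 CPM (−2.29 ± 0.29, adjusted p = 0.00017). AHP4, a phosphotransfer protein of the pathway, went from 0, 0.115 and 0.242 CPM to 10.1, 4.75 and 7.58 CPM (5.91 ± 0.57, adjusted p = 2.6e-05). IPT9, which acts on transfer RNA, fell by 0.81 on the log2 scale.

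Brassinosteroid genes had 4 higher and 9 lower of 39 (median 0.05; higher calls 2 without Columbia-0 replicate 1 or nrpb2-3 replicate 3). ROT3, a P450 of the pathway, rose from 2.91 ± 0.462 to 11.7 ± 2.07 CPM (2.01 ± 0.23, adjusted p = 7.6e-05) and the receptor BRL1 by 1.12 ± 0.20, while BEE1, an early response factor, fell from 8.26 ± 1.88 to 2.39 ± 0.456 CPM (−1.79 ± 0.23, adjusted p = 0.00018) and TCP1, which activates synthesis, from 1.67, 1.36 and 2.28 CPM to 0, 0.350 and 0.187 CPM (−3.27 ± 0.66, adjusted p = 0.0031). Ethylene genes had 2 higher and 4 lower of 38 (median 0.07). ACS4, which makes the precursor ACC, fell from 8.72, 3.41 and 4.996 CPM to 0.389, 0.409 and 0.289 CPM (−3.97 ± 0.41, adjusted p = 4.3e-05) and the ACC oxidase annotated as EFE by 0.94 on the log2 scale. The higher ethylene calls were 0 to 1 without any 1 of Columbia-0 replicates 1, 2 and 3 and nrpb2-3 replicates 1, 2 and 3, and 0 in the 6 libraries alone, and the lower calls 2 without nrpb2-3 replicate 1.

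Of 48 genes of pattern-triggered immunity 8 were lower, or 16.7% against 15.1% of all tested genes, and 3 were higher (median −0.38). The list's median level by library overlapped, relative to the Columbia-0 mean. It was −0.41, −0.15 and −0.32 in nrpb2-3 and −0.25 in Columbia-0 replicate 3, and the FACT mutant libraries ranged from −0.36 to 0.17. EFR, the receptor for bacterial elongation factor Tu, held 8.16, 9.78 and 6.82 CPM in Columbia-0 and 2.23, 3.04 and 3.75 CPM in nrpb2-3 (edgeR log2 fold change −1.45 ± 0.21, adjusted p = 0.00034), without overlap. FLS2, the flagellin receptor, stood at −0.45 ± 0.11 and CERK1, the chitin co-receptor, at −0.52 ± 0.14, but with library totals these were 0.09 and 0.01, so neither was lower on that scale. RIN4, a guarded immune regulator, fell by 0.66 on the log2 scale. The oxidase gene RBOH F rose (0.69 ± 0.19, adjusted p = 0.015), a call lost without nrpb2-3 replicate 3 (0.087). The higher calls numbered 0 to 1 without any 1 of Columbia-0 replicates 1 and 3 and nrpb2-3 replicates 1 and 3, and the lower calls 4 to 5 without Columbia-0 replicate 2 or nrpb2-3 replicate 1 and 13 by DESeq2, 15 with a replicate block and 1 with library totals.

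Cysteine-rich receptor-like kinases had 7 lower of 40, or 17.5% against 15.1% of all tested genes, and 1 higher (median −0.23). By library the list's median level overlapped, relative to the Columbia-0 mean. It was −0.48, −0.33 and 0.07 in nrpb2-3 and 0.04, −0.19 and −0.05 in Columbia-0. The FACT mutant libraries ranged from −0.48 to 0.09. The higher calls were 0 to 3 without any 1 of Columbia-0 replicates 1 and 2 and nrpb2-3 replicates 1 and 2. CRK4 fell from 27.4, 16.7 and 23.8 CPM to 1.46, 2.90 and 4.78 CPM (edgeR log2 fold change −2.88 ± 0.37, adjusted p = 0.00032), and CRK30 by 2.17 on the log2 scale. EP1, annotated as related to these kinases, fell from 40.4 ± 8.60 to 13.6 ± 2.87 CPM (−1.57 ± 0.19, adjusted p = 0.00011). Intracellular immune receptors of the NLR class went both ways, with 22 higher and 12 lower of 125 (median 0.04; higher calls 11 to 14 without nrpb2-3 replicate 1 or 3). AT5G40910, of the TIR class, rose from 15.3 ± 1.79 to 37.6 ± 10.6 CPM (1.30 ± 0.18, adjusted p = 0.00031). AT1G58410, of the coiled-coil class, rose from 0, 0.0289 and 0.107 CPM to 1.07, 1.21 and 2.08 CPM (4.87 ± 0.85, adjusted p = 0.0011). Its class members AT1G61300 and AT1G61190, neighbours by their locus numbers, fell by 1.22 and 0.81 on the log2 scale. NLR genes lie in clusters of similar copies, so reads shared between them may move single values.

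Genes of indole glucosinolates and camalexin, defence compounds made from tryptophan, had 5 higher and 7 lower of 34 (median −0.40). By library the list's median level overlapped, relative to the Columbia-0 mean. It was −0.50, −0.16 and −0.29 in nrpb2-3 and −0.17 in Columbia-0 replicate 3, and the FACT mutant libraries ranged from −0.30 to 0.10. CYP83B1, an enzyme of the core pathway, fell from 300.0 ± 37.7 to 197 ± 11.4 CPM (edgeR log2 fold change −0.61 ± 0.12, adjusted p = 0.0023) and CYP81F3, which decorates the indole ring, by 2.25 on the log2 scale. PYK10, a myrosinase of root endoplasmic reticulum bodies, rose from 83.4 ± 19.97 to 209 ± 64.1 CPM (1.32 ± 0.33, adjusted p = 0.011), a call lost without Columbia-0 replicate 1 (0.05) or nrpb2-3 replicate 3 (0.051). The higher calls numbered 0 to 3 without any 1 of Columbia-0 replicates 1, 2 and 3 and nrpb2-3 replicates 2 and 3.

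Stress and senescence genes were called in both directions. Of 17 hypoxia genes 3 were lower, or 17.6% against 15.1% of all tested genes (median −0.44). The higher genes numbered 0, also by DESeq2 and at an unadjusted edgeR p under 0.05, and the lower calls were 5 without nrpb2-3 replicate 2. Relative to the Columbia-0 mean, the list's median level was −0.42, −0.17 and −0.44 in the nrpb2-3 libraries and −0.26 in Columbia-0 replicate 1, so the groups overlapped. PDC2, a pyruvate decarboxylase, stood at 172, 194 and 109 CPM in Columbia-0 and 91.2, 96.9 and 64.0 CPM in nrpb2-3 (edgeR log2 fold change −0.91 ± 0.21, adjusted p = 0.0061). The haemoglobin HB1 stood at −0.92 ± 0.25, a call lost without nrpb2-3 replicate 1 (0.055). Mitochondrial stress genes had 3 higher and 3 lower of 19, 15.8% each way and near the shares of all tested genes (median −0.22). The alternative oxidase AOX1C rose from 0.673 ± 0.190 to 2.46 ± 0.765 CPM (1.86 ± 0.37, adjusted p = 0.0023) and NDB4, an external NADH dehydrogenase, from 8 counts over Columbia-0 to 0.717, 0.954 and 1.87 CPM (3.93 ± 0.67, adjusted p = 0.00092). Neither passed the test against the FACT mutants (AOX1C 0.11 ± 0.29, adjusted p = 0.80; NDB4 0.88 ± 0.44, adjusted p = 0.14). NDA1, the light-dependent internal enzyme, fell from 48.6 ± 2.78 to 23.1 ± 5.67 CPM (−1.07 ± 0.18, adjusted p = 0.00098). Senescence and chlorophyll breakdown had 9 lower and 2 higher of 35 (median −0.29), with 5 lower calls without nrpb2-3 replicate 3. This list's median level was −0.45, −0.22 and −0.40 in nrpb2-3 and −0.35 in Columbia-0 replicate 3, so the groups overlapped. MES16, which trims chlorophyll catabolites, fell from 11.5 ± 2.23 to 4.75 ± 0.659 CPM (−1.28 ± 0.17, adjusted p = 0.00020) and WRKY54, a brake on senescence, by 1.59 on the log2 scale.

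Genes of single tissues were next. Of 25 tested genes of root identity and function, out of 44 in the table, 12 were higher and 2 lower, with a median of 0.87, the highest of the lists (marker lists aside) with 5 or more tested members. AIL6, a growth regulator related to PLETHORA factors and active in shoots too, rose from 0.848, 2.08 and 2.34 CPM to 4.41, 5.24 and 9.18 CPM (edgeR log2 fold change 1.84 ± 0.35, adjusted p = 0.0018). NIP1;1, annotated as NLM1, an aquaporin-like channel, rose from 0.675 ± 0.281 to 3.86 ± 0.921 CPM (2.52 ± 0.35, adjusted p = 0.00027), RCI3, a peroxidase, by 2.16 ± 0.45 and SHR, which patterns the root and also the leaf, by 0.62 ± 0.13. WOX5, the factor of the root stem cell niche, stood at 0.614, 0.115 and 0.188 CPM in Columbia-0 and 1.19, 0.915 and 2.98 CPM in nrpb2-3 (2.47 ± 0.84, adjusted p = 0.041), groups that do not overlap and a call lost without any 1 of Columbia-0 replicates 2 and 3 and nrpb2-3 replicates 1 and 3 (0.057 to 0.17). The higher calls of the list were 6 to 7 without any 1 of Columbia-0 replicates 1 and 2 and nrpb2-3 replicate 3. The 11 root markers summed to 117 to 151 CPM in Columbia-0 and 217 to 346 CPM in nrpb2-3. PYK10, given above, made up most of these sums on average, and its call was lost without Columbia-0 replicate 1 or nrpb2-3 replicate 3. The sums therefore mainly follow PYK10. Of these 11, 3 had no count in Columbia-0 (RHD6, PLT1 and EXPA7) and 3 none in nrpb2-3 (RHD6, PLT1 and PLT2). Of the 6 that were tested 3 were higher, 1 without nrpb2-3 replicate 3. The part of root content in these values was not tested.

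Vascular genes were higher in 17 and lower in 4 of 35 cases (median 0.61; lower calls 2 without Columbia-0 replicate 2 or nrpb2-3 replicate 3). MP, the auxin response factor that starts vascular strands, stood at 8.60, 15.4 and 14.99 CPM in Columbia-0 and 32.1, 30.2 and 40.6 CPM in nrpb2-3 (edgeR log2 fold change 1.40 ± 0.21, adjusted p = 0.00049). PHB, a homeodomain factor of xylem and leaf upper side, rose from 27.9 ± 6.97 to 60.2 ± 3.76 CPM (1.11 ± 0.18, adjusted p = 0.00069) and WOX4, which keeps the cambium dividing, from 2.46 ± 0.798 to 7.19 ± 0.960 CPM (1.54 ± 0.29, adjusted p = 0.0019). SUC2 of the companion cells, given above, went the other way. Of the 4 phloem markers 1 was higher and 1 lower, and of the 5 xylem markers none was called (summed level 42.3 to 79.4 CPM in Columbia-0, 64.7 to 80.6 CPM in nrpb2-3). DESeq2 called 0 of these 5 as well, and 0 had an unadjusted edgeR p under 0.05.

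In the epidermis, 11 of 35 genes of the stomatal lineage were higher and 3 lower (median 0.16). Relative to the Columbia-0 mean, the list's median level was 0.25, 0.17 and 0.08 in nrpb2-3 and 0.11 in Columbia-0 replicate 3, so the groups overlapped. The higher calls were 4 to 5 without any 1 of Columbia-0 replicates 1 and 2 and nrpb2-3 replicate 3, and the lower ones 5 without Columbia-0 replicate 1. ERL2 and ER, receptors that space stomata, rose from 10.9 ± 1.16 to 28.2 ± 5.52 CPM (edgeR log2 fold change 1.37 ± 0.18, adjusted p = 0.00018) and from 77.6 ± 10.6 to 127 ± 4.48 CPM (0.71 ± 0.14, adjusted p = 0.0023). KAT1, a potassium channel of guard cells, fell from 15.2 ± 1.54 to 8.91 ± 1.29 CPM (−0.77 ± 0.17, adjusted p = 0.0044), and BCA4, a carbonic anhydrase that acts in their CO2 response, by 0.64 on the log2 scale. Of 5 guard cell markers 2 were lower, and their summed level was 40.4 to 51.0 CPM in Columbia-0 and 30.5 to 35.1 CPM in nrpb2-3. Of 4 trichome markers 1 was lower, or 0 without any 1 of Columbia-0 replicates 1 and 3 and nrpb2-3 replicates 2 and 3, and none of 5 seed markers had enough counts to be tested. Of 31 trichome and root hair genes 7 were higher and 2 lower (median 0.47; higher calls 4 without Columbia-0 replicate 1 or nrpb2-3 replicate 3). EGL3, a factor that promotes hair fate in leaves, rose from 1.77 ± 0.274 to 6.33 ± 2.65 CPM (1.84 ± 0.28, adjusted p = 0.00050) and LRL2, of root hairs, by 1.14 ± 0.17, while TCL1, an inhibitor of trichomes, fell from 2.95, 1.04 and 1.56 CPM to 0.225, 0.117 and 0.0851 CPM (−3.69 ± 0.49, adjusted p = 0.00020).

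**Figure D5:**
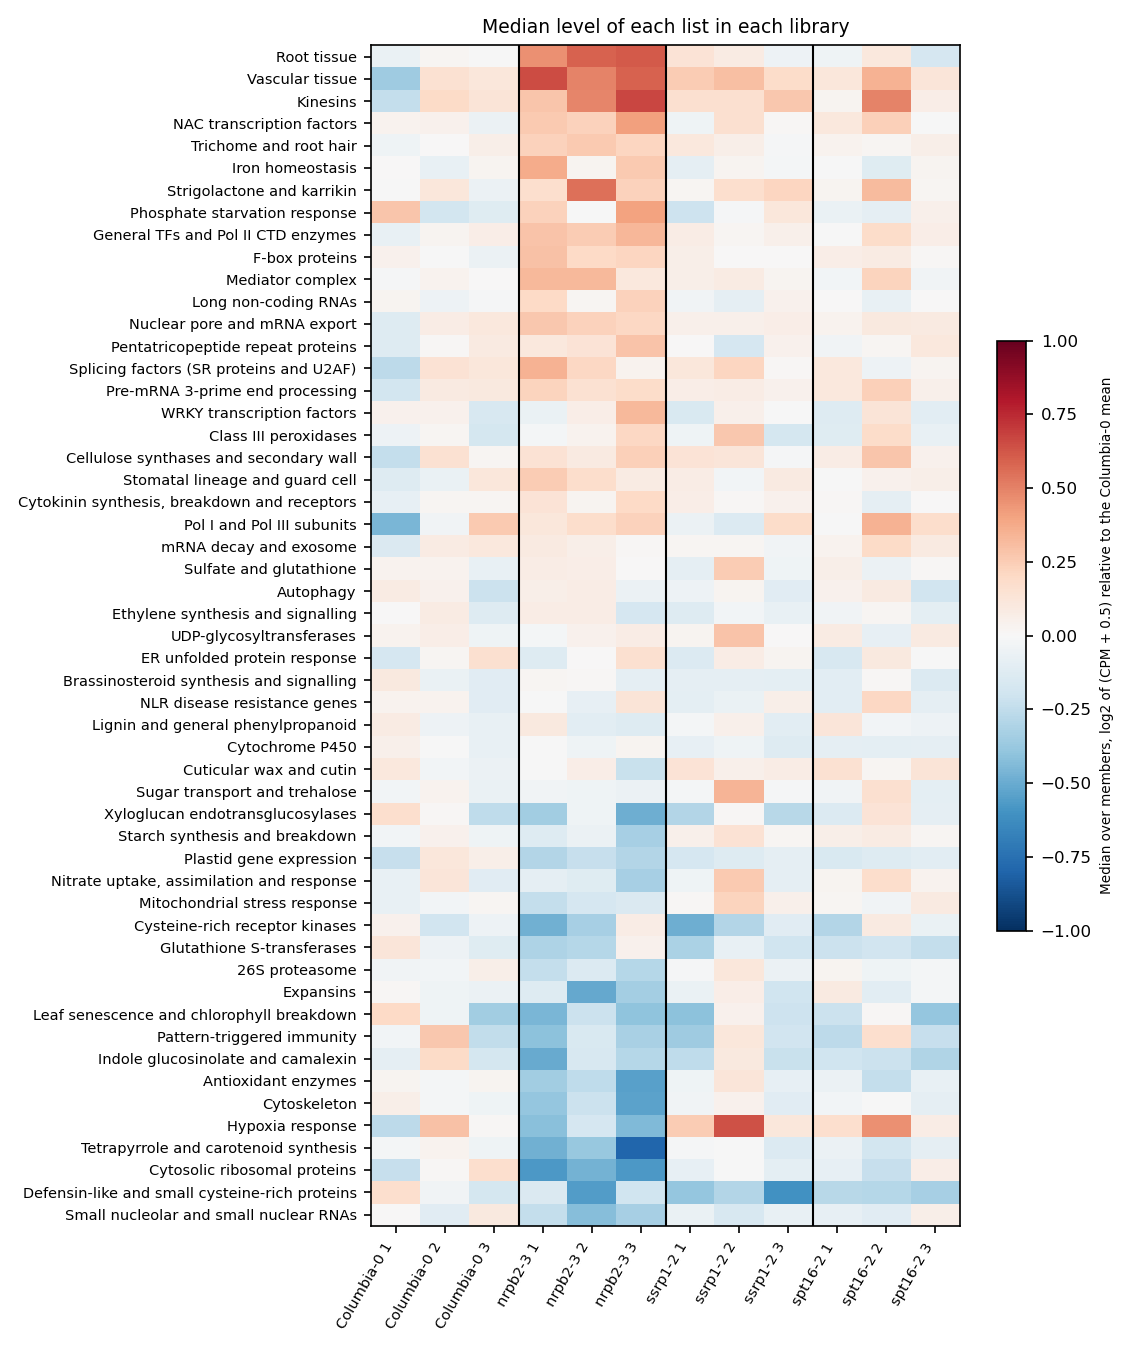
Median level of the members of each list (rows) in each of the 12 libraries (columns), as log2 of CPM + 0.5 relative to the Columbia-0 mean. Red is higher and blue lower. In some lists the groups overlap, as in phosphate genes with Columbia-0 replicate 1 at 0.28 and nrpb2-3 replicate 1 at 0.23. The nrpb2-3 columns are red at the top (root, vascular, kinesin) and blue at the bottom (ribosomal proteins, tetrapyrroles), with the strongest colour in replicate 3 for kinesins (0.67) and pigment genes (−0.79).

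In the NAC and WRKY families of transcription factors, higher calls outnumbered lower ones. Of 74 tested NAC genes, out of 99 in the table, 15 were higher and 0 lower (median 0.49). NAC044, which acts after DNA damage, stood at 0.965, 0.693 and 0.940 CPM in Columbia-0 and 3.26, 4.09 and 3.63 CPM in nrpb2-3 (edgeR log2 fold change 2.07 ± 0.23, adjusted p = 6e-05), and NAC052 at 0.61 ± 0.11. At an unadjusted edgeR p under 0.05, 3 NAC genes were lower. DESeq2 called 0 lower, and the count was 1 with a replicate block, without Columbia-0 replicate 2 or without nrpb2-3 replicate 3. NAC044 did not pass the test against the FACT mutants (0.34 ± 0.18, adjusted p = 0.17). Of 58 WRKY genes 16 were higher and 1 lower (median 0.19), and the higher calls were 9 without nrpb2-3 replicate 3. The lower calls were 2 by DESeq2 and 2 without any 1 of Columbia-0 replicate 3 and nrpb2-3 replicates 2 and 3. By library the median level of the WRKY list overlapped, relative to the Columbia-0 mean. It was −0.06, 0.06 and 0.32 in nrpb2-3 and 0.04, 0.04 and −0.16 in Columbia-0. WRKY57 rose from 6.05 ± 1.705 to 23.1 ± 2.37 CPM (1.93 ± 0.19, adjusted p = 2.5e-05), WRKY23, known from auxin-dependent root growth, from 2.13 ± 0.229 to 8.43 ± 2.602 CPM (1.98 ± 0.25, adjusted p = 0.00014) and WRKY21 by 0.84 ± 0.14. WRKY54 was the member that fell.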

How the data were processed

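Gene expression was measured by RNA-seq in 12 libraries, 3 per genotype (nrpb2-3, the wild type Columbia-0 and the FACT mutants spt16-2 and ssrp1-2). The count table deposited by the authors holds whole-number read counts per gene, and the submitters' processing notes name TAIR10 as the build and fastp 0.23.4 and HISAT2 2.2.1 as tools. Which program counted the reads, whether it used strand and what it did with multi-mapped reads is not given in the sources used here. Another deposited table holds a length-scaled signal per gene that is named TPM by the authors but does not sum to a common total, so it served only for a limma-trend alternative on log2(signal + 1), with a signal of at least 1 in at least 3 libraries. All sample columns were used.

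Counts were filtered with filterByExpr at a minimum count of 10 and tested with edgeR 4.0.16 (R 4.3.3; TMM factors, robust quasi-likelihood fit of all 12 libraries, 8 residual degrees of freedom), which kept 20471 of 32833 genes, 26456 of which had a count. The contrasts were nrpb2-3 against Columbia-0 and against the mean of ssrp1-2 and spt16-2, with Benjamini-Hochberg adjustment over all tested genes and calls at 0.05. Of the loci, 32548 were matched to the RefSeq annotation of TAIR10.1, which gave names, transcript lengths and overlaps, and 285 were not. Tables and figures were made with Python 3.11.15, pandas 2.3.3, numpy 2.4.6, scipy 1.17.1 and matplotlib 3.10.9. The tests were tried on simulated data.

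Named were NRPB2, the 12 widest called increases and decreases among annotated nuclear genes whose libraries did not overlap and whose higher group averaged 50 counts or more, and from each of 55 lists up to 4 called genes, taken by smallest adjusted p, plus 1 of the opposite direction. Genes outside this rule are given as chosen after their values were seen. The members and lists were chosen with earlier results of these data known, and 8 lists of tissue markers were added. No list was tested, and each is described by its counts and median. A member silent elsewhere could pass the count filter through nrpb2-3 alone, which can favour higher calls. How many members of each list did so was not counted. Lower bounds of fold changes set a group without counts to 3 counts over the group. They and the 95% intervals of count ratios cover counting error only.

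Alternatives were other scalings, DESeq2 1.42.0, limma 3.58.1, no filter, no organelle genes, the 6 libraries alone, a fold threshold, a replicate block and leaving out each library. Deviations from the group means of same-numbered nrpb2-3 and FACT mutant libraries correlated at 0.139 to 0.258, so that comparison was also fitted with a replicate block. Values given against the FACT mutants come from the fit without it. The blocked adjusted p stands beside each named call that the block changes.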

Additional observations from a re-analysis of the deposited data

How the results depend on the processing

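The calls against Columbia-0 numbered 6335 genes, 3238 higher and 3097 lower. With library totals in place of TMM factors they were 11446, 10688 and 758, and with a fold of at least 2 required as well 2127, 1364 and 763. Leaving out 1 library gave 1996 (without nrpb2-3 replicate 3) to 2812 higher genes and 2369 to 2924 lower ones. The calls against the mean of the FACT mutants numbered 6268, 3198 higher and 3070 lower. They were 11580, 10675 and 905 with library totals and 1746, 1075 and 671 with the fold required. Leaving out 1 library gave 3820 (without nrpb2-3 replicate 3) to 6244 calls, 1721 (without nrpb2-3 replicate 3) to 3060 higher and 2099 to 3192 lower. With median-of-ratios scaling, DESeq2, limma, no filter, no organelle genes or the 6 libraries alone, each of the 3 counts against Columbia-0 stayed within 1.5 times. The splits were 2957 higher and 3335 lower with that scaling, 3244 and 3708 by DESeq2, 3510 and 2551 by limma, and 2369 and 2524 with the 6 libraries alone.

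With a replicate block the calls were 4083 higher and 3840 lower against Columbia-0, and 3983 and 3839 against the FACT mutants. Against Columbia-0 the same-number correlations were 0.024, 0.261 and 0.169. Each nrpb2-3 library correlated best with its own number, but Columbia-0 replicate 1 correlated better with nrpb2-3 replicate 3 (0.039). Whether the numbers pair these libraries is therefore not settled, and the calls given are those without the block. Against the FACT mutants the block changed the calls of 6 named genes, given above, and no other named call.

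Of 186 named genes called, 147 were called in each alternative, 34 lost the call in at least 1 and 5 changed sign with library totals, namely PAA2 (0.0018), RPT2a (0.10), RPN12a (0.053), FLS2 (0.087) and CERK1 (0.012). The change follows from the shift of 0.55 that library totals bring. Of 930 list medians compared across alternatives, relative to that of all genes, 814 lay within 0.1 of the value reported, and of 1736 list counts 1414 lay within 1.5 times. Library totals differed little, and counting error is widest for genes given with few counts.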

Other observations

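Several large families went both ways. Of 143 tested cytochrome P450 genes, which oxidize hormones, lipids and defence compounds, 31 were higher and 32 lower in nrpb2-3 (median log2 fold change −0.03, against 0.05 over all tested genes). CYP78A5, which promotes organ growth, rose from 7.23 ± 1.60 to 29.4 ± 3.31 CPM (SD, n = 3; edgeR log2 fold change 2.02 ± 0.18, adjusted p = 1.3e-05) and CYP77B1 rose from 19.8 ± 4.86 to 53.6 ± 6.64 CPM (1.44 ± 0.17, adjusted p = 0.00011). CYP706A3 fell from 3.59 ± 0.452 to 0.356 ± 0.271 CPM (−3.32 ± 0.37, adjusted p = 8.1e-05). In all 3 the libraries of the genotypes did not overlap. Of 44 class III peroxidases, secreted enzymes that act on walls, 7 were higher, or 15.9% against 15.8% of all tested genes, and 5 lower (median 0.18). AT3G21770 rose from 3.599, 5.20 and 7.36 CPM to 16.6, 22.5 and 28.6 CPM (2.07 ± 0.28, adjusted p = 0.00032) and PA2 rose by 1.72 ± 0.34, while AT4G11290 fell from 13.5, 17.3 and 7.82 CPM to 0.512, 2.102 and 0.698 CPM (−3.54 ± 0.49, adjusted p = 0.00052).

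UDP-glycosyltransferases, which attach sugars to small molecules, had 5 higher and 9 lower of 47 (median 0.06). The higher calls were 2 to 3 without nrpb2-3 replicate 1 or 3, and the lower calls 4 to 5 without any 1 of Columbia-0 replicates 1 and 2 and nrpb2-3 replicate 3. Glutathione S-transferases, which take part in detoxification, had 3 higher and 8 lower of 39 (median −0.23). Of 190 tested F-box genes, out of 652 in the table, 45 were higher and 7 lower (median 0.34). The products of F-box genes choose proteins for ubiquitination. Their higher calls were 25 to 28 without nrpb2-3 replicate 1 or 3, and their lower calls 2 to 4 without any 1 of Columbia-0 replicates 1 and 2 and nrpb2-3 replicate 3. Of 239 pentatricopeptide repeat genes, most of whose products act on organelle RNA, 15 were higher and 7 lower (median 0.23), and the higher calls were 4 to 8 without nrpb2-3 replicate 1 or 3. Of 193 defensin-like genes, 18 were tested, with 4 higher and 5 lower, and the higher calls were 1 to 2 without any 1 of Columbia-0 replicates 2 and 3 and nrpb2-3 replicates 1, 2 and 3.

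Further members of the lists above were the long non-coding RNA AT2G04735, without a count in Columbia-0 and at 11.6, 7.78 and 12.6 CPM in the mutant, the small nucleolar RNA AT1G07897, which fell from 4.49 ± 1.51 to 0.696 ± 0.178 CPM (edgeR log2 fold change −2.69 ± 0.32, adjusted p = 0.00011) and overlaps another annotated gene, and the kinesin-like gene AT4G26660, which rose by 0.98 ± 0.24, adjusted p = 0.0093. Transfer RNAs and pseudogenes had 1 tested gene each, not called.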
